A study of Mus musculus with 9 samples.

Results

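Cxcl13 is the mouse gene of a secreted CXC chemokine, and its transcripts were followed here through the mouse cells of glioblastoma patient-derived orthotopic xenografts (PDOXs). It is 1 gene of 33274 gene symbols listed in the count tables, and it was picked from earlier results of the same data for its high level in PDOXs, so that its levels in PDOX and normal brain cells are given as a description and without a test. A PDOX is grown by implanting organoids of a patient's tumor into the brain of an immunodeficient mouse, so the tumor cells are human and the surrounding cells are mouse. Mouse cells of 9 samples were profiled by Drop-seq, a droplet method that reads the 3′ end of transcripts and counts molecules by unique molecular identifiers (UMIs). The samples comprise 7 untreated PDOXs (P3, P8, P13, T16, T101, T192 and T233), 1 PDOX of model P3 treated with temozolomide, an alkylating chemotherapy (P3TMZ), and 1 tumor-free brain of a nude mouse (Nu-NB). All hosts were nude mice, which lack a functional thymus and most T cells but keep B cells and NK cells. T192 and T233 were derived from the same patient, P3 and P3TMZ came from 1 mouse each, the number of mice behind the other samples is not given in the sources used here, and ages were not given in the labels.

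CXCL13 attracts B cells through the receptor CXCR5 and guides them into the follicles of lymphoid organs. In lymph nodes and spleen it is made mainly by follicular dendritic cells and other stromal cells, under lymphotoxin and TNF signals that act through NF-kB, including the alternative pathway of NIK (encoded by Map3k14), p52 and RelB. Macrophages and microglia, the resident macrophages of the brain, can make it in inflamed tissue.

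The gene lies on chromosome 5, from 95956951 to 95961068 on the forward strand (GENCODE annotation of GRCm38, the build of the count tables). Its annotated transcript has 4 exons and 1150 bases, of which 327 code for the protein and 803 form the 3′ UTR, the part that 3′ reads mostly cover. The promoter is printed because NF-kB is known to act on this gene there. It is the stretch of 250 bases before the RefSeq start, at chr5:95956689-95956938 (GRCm38.p6, forward strand), with capitals marking a kappa B element, GGGAGATTT, and a TATA box, TATAAATA.

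Cxcl13 promoter: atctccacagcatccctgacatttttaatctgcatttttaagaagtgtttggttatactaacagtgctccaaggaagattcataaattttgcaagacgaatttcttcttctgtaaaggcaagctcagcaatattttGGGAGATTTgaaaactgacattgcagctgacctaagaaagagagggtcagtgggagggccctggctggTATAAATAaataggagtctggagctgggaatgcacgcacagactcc

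The first letter of GGGAGATTT lies 114 bases before the start and that of TATAAATA 46 bases before it, and the motifs do not overlap. Searched on both strands, GGGAGATTT was present in 93 of 32851 RefSeq promoter windows (0.283%) and TATAAATA in 513 (1.56%). These matches describe the sequence and do not show that a factor is bound in these cells.

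The 9 files held 33998 barcodes with 1294068 to 8410580 UMIs per file, and 54568 of the UMIs were Cxcl13. After filters 14622 cells remained, and they were clustered without Cxcl13. The median cell of a sample had between 521 and 1303 UMIs. Of the kept cells, 4811 were called myeloid-like from marker genes such as Ctss, Tyrobp and C1qa, with the fewest in P3 and the most in T192 (1081), and 600 cells (4.10%) in clusters carrying markers of several classes were called mixed. Cell barcodes were shared by 0 to 11 cells in each of 36 pairs of samples. FACS was used to sort Nu-NB and P8 and MACS to purify the other samples. The files of the FACS samples also use an older release of gene symbols, so that sort, symbol release and any difference of these samples from the other 7 cannot be told apart.

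Among named classes, Cxcl13 was highest in the myeloid-like cells of every PDOX, and it was nearly absent from the normal brain sample. In myeloid-like cells it reached 3408 ± 1277 (SD, n = 7) of 1000000 UMIs of those cells (CPM) in untreated PDOXs, beside 58.2 CPM in Nu-NB (95% exact Poisson interval 36.9 to 87.3) and 10010 CPM in P3TMZ (9776 to 10248). The PDOXs held 890 CPM in P8, 2877 in T16, 3319 in T101, 3754 in P3, 3860 in P13, 4360 in T233 and 4797 in T192. P8 stood apart at the low end, between Nu-NB and the other 6 PDOXs. Intervals cover counting error only, while the transcript was spread over the cells more unevenly than counting error gives.

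Set in order, P3TMZ was followed by T192, T233, P13, P3, T101, T16, P8 and Nu-NB. The ratios of neighbors ran from 1.03 for P13 to P3 (counting interval 0.966 to 1.09) and 1.10 for T192 to T233 up to 2.09 for P3TMZ to T192, 3.23 for T16 to P8 and 15.3 for P8 to Nu-NB, the 2 samples that share the FACS sort and the symbol release. With 1 library per sample, and counts more uneven over cells than these intervals allow for, they do not tell neighbors in this order apart. P3TMZ was the highest sample, Nu-NB the lowest and P8 the lowest PDOX in each of 10 ways of filtering, naming and scaling the cells.

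The brain signal came from few cells. In Nu-NB, 23 Cxcl13 UMIs lay in 4 of 681 myeloid-like cells, with 10, 6, 5 and 2 UMIs, and no other class of that sample held any. All 4 cells belonged to the sub-cluster of homeostatic microglia-like cells described below.

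Because deeper cells show more genes, each cell was thinned to 500 UMIs before cells with a Cxcl13 UMI were counted. At that depth 1.29% of the Nu-NB myeloid-like cells held a UMI (4 of 311 cells; 95% exact binomial interval 0.352 to 3.26%). The share was 22.0% in P8, 33.9% in P13, 40.4% in T16, 44.0% in P3, 83 of 166 cells in T101, 61.1% in T192 and 61.5% in T233, a mean of 44.7 ± 14.3% (SD, n = 7). In P3TMZ it was 77.0% (71.3 to 82.2%). The order by share is not that by CPM: P13 had a lower share than T16, P3 and T101 but a higher CPM than each of them. Thinning left out 1189 of 3797 PDOX cells, 370 of 681 in Nu-NB and 89 of 333 in P3TMZ, and without it the shares were 32.1 to 67.1% in PDOXs, 0.587% in Nu-NB and 74.5% in P3TMZ.

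Endothelial-like cells, which are not known to make CXCL13 in the brain, were taken as a measure of the background. The source of their Cxcl13 UMIs was not tested. At 500 UMIs, 51 of 1306 endothelial-like cells of the untreated PDOXs held a Cxcl13 UMI (3.91%), from 1.03% in P8 to 6.08% in P13, and 6.76% in P3TMZ. The lowest myeloid-like share among the PDOXs, in P8, was above the highest endothelial-like one. In Nu-NB 0 of 11 endothelial-like cells held one. With 3 cells taken as the limit for a count of 0, this allows a share of up to 27.3%.

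**Figure D1:**
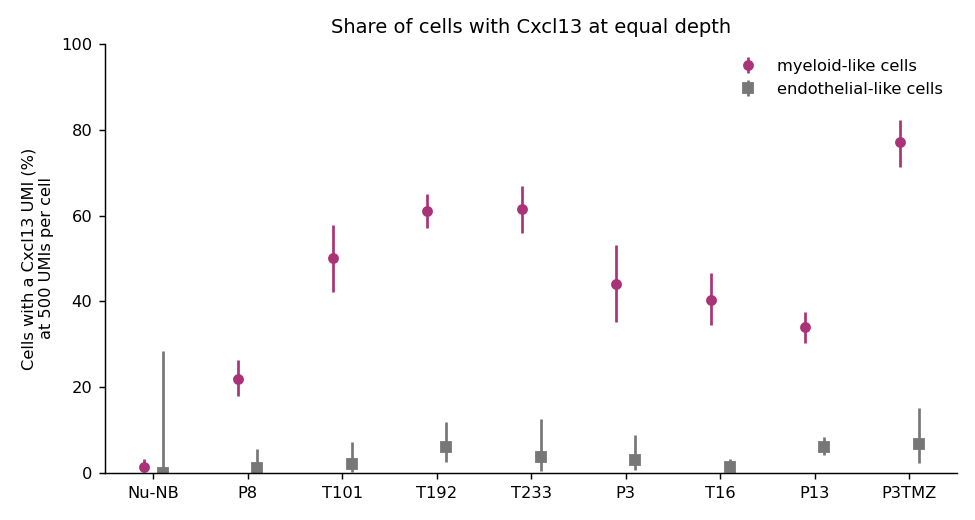
Share of cells with a Cxcl13 UMI after thinning to 500 UMIs per cell (vertical axis, %) in each sample (horizontal axis), for myeloid-like cells (circles) and endothelial-like cells (squares), with 95% exact binomial intervals. Myeloid-like cells range from 22.0 to 61.5% in untreated PDOXs and reach 77.0% in P3TMZ, while endothelial-like cells stay between 0 and 6.76%.

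Across cell classes, Cxcl13 was highest in myeloid-like cells in each PDOX among named classes with at least 10 cells. The myeloid-like level was 5.87-fold (T16) to 12.3-fold (P3) that of the highest other class in 6 PDOXs. In P8 the highest other class, choroid plexus-like cells, had 2 UMIs in 51 cells (24.1 CPM, 2.91 to 86.9), and in P3TMZ cycling-like cells had 9 UMIs in 17 cells (352 CPM). Endothelial-like cells held 126 ± 105 CPM (SD, n = 7), from 8.61 CPM in P8 to 304 CPM in P3, and mural-like cells 205 ± 238 CPM (n = 7). Astrocyte-like cells held 358 ± 285 CPM in the 6 PDOXs with at least 10 such cells, with 754 CPM in T192 and 17.9 CPM in P8. The low levels of the other classes thus ordered the samples partly as the myeloid level did, with P8 lowest in endothelial-like and astrocyte-like cells.

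The low signal outside the myeloid-like cells was set beside 4 myeloid genes, C1qa, C1qb, C1qc and Ctss. The ratio of Cxcl13 to these 4 in endothelial-like cells, relative to myeloid-like cells of the same sample, had a median of 1.04 (0.448 to 1.38), and its counting interval held 1 in 5 of 7 PDOXs. The endothelial-like level was a median of 3.14% of the myeloid-like one (0.968 to 8.11%). Astrocyte-like cells gave a median ratio of 1.45 (0.786 to 2.24, 6 PDOXs), with an interval that held 1 in 3 of 6, lay above it in 2 and below it in 1. The source of the Cxcl13 UMIs in these classes was not tested.

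Of all Cxcl13 UMIs in kept cells, myeloid-like cells held a mean of 79.3% over the PDOXs (50.5 to 97.6%). The mean was 32.1% when cells were named 1 by 1 from markers, which leaves out cells with markers of other classes. In T16 and P13 the share also depended on the clustering. It was 61.0% and 50.5% as used here, and 28.4% and 37.4% at resolution 2. With no doublet removal it was 34.6% and 47.3%. Leaving out the myeloid sub-clusters led by genes of other classes, described below, gave 20.9% and 33.5%. Counting mixed cells as myeloid-like gave 94.7% and 96.3%. Mixed cells held a mean of 17.1%, up to 45.8% in P13, at 1900 ± 1254 CPM (68.3 in T101 to 3184 in P13). Whether a mixed cell is a doublet or a cell with genes of 2 classes was not tested.

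**Figure D2:**
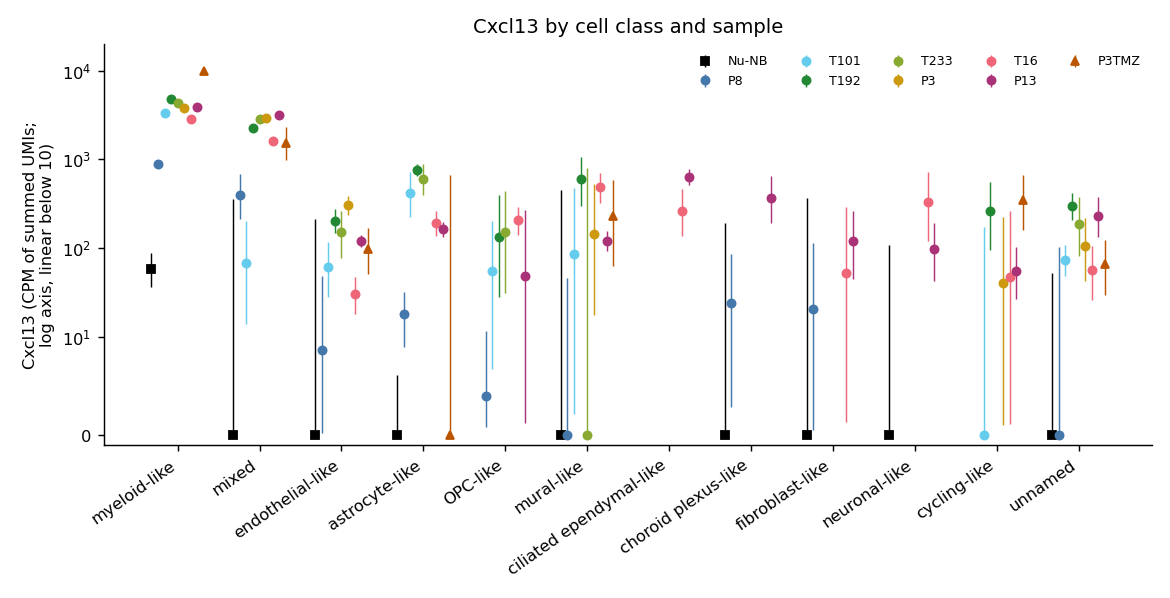
Cxcl13 in CPM of summed UMIs (vertical axis, log scale, linear below 10) by cell class (horizontal axis) for classes with at least 10 cells in a sample, 1 point per sample, with 95% exact Poisson intervals. Myeloid-like cells of the 7 untreated PDOXs lie between 890 and 4797 CPM and P3TMZ at 10010, the mixed cells come next in most PDOXs, and Nu-NB is at 58.2 in myeloid-like cells and at 0 in its other classes.

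Cxcl13 was unevenly spread over the myeloid-like cells. With each cell thinned to 500 UMIs, the variance of its count over cells was 6.18 times the mean (median of 7 PDOXs, 4.30 in P8 to 11.3 in P13), where counting error alone gives 1. General microglial genes were more even, with 1.26 for C1qa and 1.30 for C1qb, which encode complement chains. Other chemokines lay between, with 1.84 for Ccl3, 1.97 for Ccl4 and 2.53 for Ccl12. Spp1, encoding osteopontin, had a ratio of 5.65 and Apoe, encoding apolipoprotein E, 8.76. The ratio grows with the mean for an uneven gene, and the mean per thinned cell was 1.61 UMIs for Cxcl13, 0.609 for Ccl4, 1.36 for C1qa and 15.6 for Apoe (medians of 7 PDOXs).

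A small share of cells carried most of the transcript. The 10% of myeloid-like cells richest in Cxcl13 held 63.9% (T101) to 80.9% (P8) of its UMIs in untreated PDOXs and 66.5% in P3TMZ. The 10% of cells with the most UMIs in total held 26.4 to 65.4% of all UMIs in the PDOXs, so that depth alone concentrates any gene to some degree. Single cells reached 473 Cxcl13 UMIs in T192, and in P13 a cell gave 8.43% of its UMIs to this gene.

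Among 27 chemokine genes, Cxcl13 led in myeloid-like cells of T101, T192, T233, P3, T16, P13 and P3TMZ by CPM of 3′ UMIs. In P8 it came after Ccl6 and Ccl3, and in Nu-NB after Ccl6. Its share of all chemokine UMIs was 12.99% in Nu-NB, 14.4% in P8, 34.6 to 51.1% in the other untreated PDOXs and 71.3% in P3TMZ. Among 18314 genes its rank was 3150 in Nu-NB, 114 in P8, 13 to 21 in the other untreated PDOXs and 10 in P3TMZ.

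**Figure D3:**
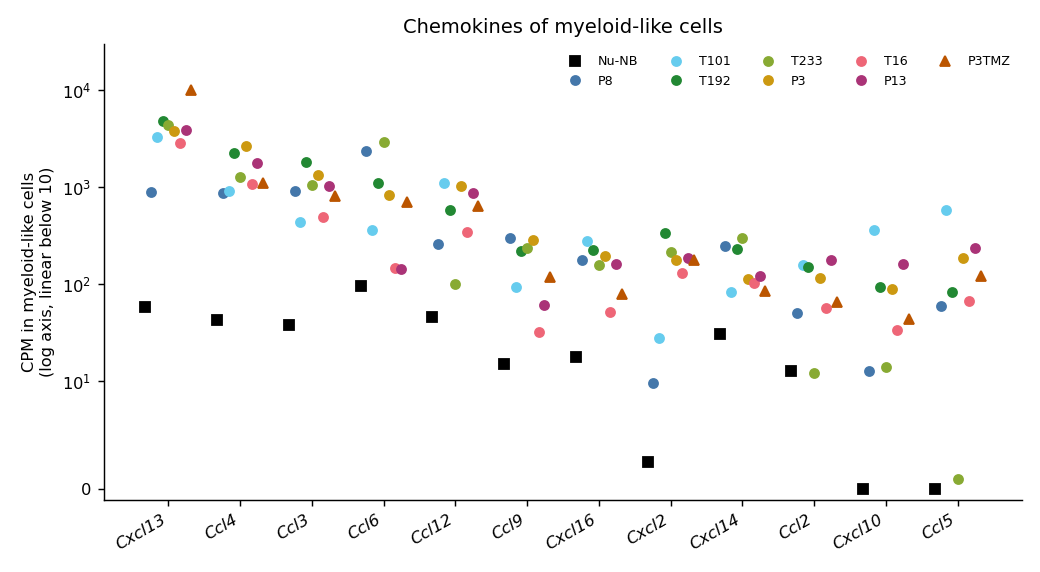
CPM in myeloid-like cells (vertical axis, log scale, linear below 10) of Cxcl13 and of the chemokines with a PDOX median of at least 50 CPM (horizontal axis), 1 point per sample. Cxcl13 is the highest of them in 6 of 7 untreated PDOXs, and P3TMZ is above the untreated PDOXs for Cxcl13 but within their range for the other chemokines plotted.

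The myeloid-like cells were clustered again without Cxcl13, which gave 13 sub-clusters. Cxcl13 was present at high level in most of them. It was low in border-associated macrophage-like cells of T16 and P13 and in monocyte-like cells of P13. Since sub-clusters were cut from the same cells, their values are a description. Levels below are for samples with at least 10 cells of the sub-cluster.

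Sub-cluster 0 held homeostatic microglia-like cells, led among others by P2ry12, Tmem119 and Gpr34, markers of resting microglia, with 9 of 12 markers of that list. It comprised 630 of the 681 Nu-NB cells and 576 PDOX cells. In Nu-NB it held 64.1 CPM. In the PDOXs it held 376 CPM in T101, 683 in P8, 1310 in P13, 2658 in T192, 4205 in T16, 4294 in P3 and 11543 in T233. Cells with the same leading genes thus differed widely between PDOXs, and all 7 PDOXs were above Nu-NB. These levels rest on few cells: in P8 1 cell held 33 of 38 UMIs, and in T233 3 of 29 cells held 146 of 213.

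Sub-cluster 1 was led by H2-Aa, Postn, Apoe, Cd74 and H2-Ab1, mostly genes of MHC class II antigen presentation, and carried 8 of 17 markers of activated (disease-associated) microglia. It held 4966 ± 3430 CPM (SD, n = 7), from 994 in P8 to 11900 in P13. Its level was above that of sub-cluster 0 in 5 of 7 PDOXs, with a counting interval above 1 in 3 and below 1 in 1 of them. Sub-cluster 2, with Cxcl2, Ch25h and Lgals3 among its leading genes, held 4150 ± 2476 CPM (n = 6) and was above sub-cluster 0 in 3 of 6 PDOXs. In P3 59 of its 103 UMIs lay in 3 of 25 cells. No fixed order of the activated and homeostatic sub-clusters was seen across PDOXs.

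Sub-cluster 3, with Trpm2, Git2 and Nfkb1 among its leading genes, came mostly from T192 (331 of 386 cells) and carried 9 of 14 inflammatory and 4 of 17 activated markers. It held 1385 CPM in T192, 1597 in T233 and 11072 in P13. These levels were 0.521-fold, 0.138-fold and 8.45-fold that of sub-cluster 0 of the same PDOX, so that the order again differed between PDOXs. In T233 the sub-cluster had 13 UMIs, and in P13 72 of 84 UMIs lay in 3 of 10 cells.

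Sub-cluster 5 was led by inflammatory genes, among them Ptgs2, Il1b and Tnf, and carried 11 of 14 inflammatory markers. It held 4879 ± 928 CPM (n = 4), with 298 of the 426 UMIs of P3 in 3 of 10 cells. Its 264 PDOX cells were very deep, with a median of 6355 UMIs, and gave 47.7% of the Cxcl13 UMIs and 36.1% of all UMIs of the PDOX myeloid-like cells. It also carried 6 of 9 cycling markers. Cells of high depth can be doublets, and the part of doublets in it beyond the scrublet step was not tested.

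Cycling myeloid cells (sub-cluster 8, 9 of 9 cycling markers such as Top2a and Mki67) held 3378 ± 2245 CPM (n = 4), from 176 in P8 to 5400 in T192. In T192 97 of the 146 UMIs lay in 1 of 17 cells, and in T16 51 of 58 lay in 3 of 11. The 11 such cells in Nu-NB held 0 UMIs. Sub-cluster 9, led by Cxcl9 and interferon-induced Gbp genes, came almost wholly from T101 and held 3753 CPM, 9.97-fold the level of sub-cluster 0 in that PDOX (3.87 to 36.7), which rests on 4 UMIs in 21 cells. Sub-cluster 7, led by ribosomal protein genes, came from P8 and held 917 CPM. Sub-clusters 4, 6 and 10 were led by genes of astrocytes, endothelial cells and smooth muscle and held 2911 ± 321, 3084 ± 900 and 3548 ± 1690 CPM. The level of the last 3 was near the mean of myeloid-like cells although other classes' genes led them, and the part of doublets in them was not tested.

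Border-associated macrophage-like cells (sub-cluster 11, 10 of 10 markers such as Mrc1, Cd163 and Lyve1) held 145 CPM in T16 and 81.8 CPM in P13, and 0 UMIs in 25 cells of Nu-NB. These levels were 0.0346-fold and 0.0625-fold that of sub-cluster 0 of the same PDOX. Monocyte-like cells (sub-cluster 12, led by Ly6c2 and Ccr2 with 5 of 6 usable markers) held 172 CPM in P13, 0.132-fold that of sub-cluster 0. The counting interval of each of these 3 ratios lay below 1. Endothelial-like cells held 30.03 CPM (18.1 to 46.9) in T16 and 121 CPM (104 to 140) in P13. The counting intervals of border-associated macrophage-like cells were 29.97 to 425 CPM in T16 and 9.91 to 296 CPM in P13. For monocyte-like cells of P13 the interval was 89.1 to 301 CPM. Each overlaps the endothelial-like interval of the same PDOX, in T16 only narrowly. Overlap is not a test of a difference, and whether these levels exceed the background was not tested. Fewer than 10 border-associated macrophage-like cells were seen in other samples: 6 cells of T192 held 7 UMIs, or 888 CPM (357 to 1830) beside 203 CPM (147 to 274) in its endothelial-like cells, with 6 of the UMIs in 1 cell. In P3TMZ 2 such cells held 21 UMIs. Monocyte-like cells were also few outside P13. In T101 6 of them held 3 UMIs, or 498 CPM (103 to 1454). Its endothelial-like cells held 61.5 CPM (28.1 to 117) and its sub-cluster 0 held 376 CPM, from 4 UMIs. The 3 monocyte-like cells of T192 held 1 UMI, as did the 2 of P3. The 1 cell of T16, the 1 of P8 and the 2 of Nu-NB held 0 UMIs.

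**Figure D4:**
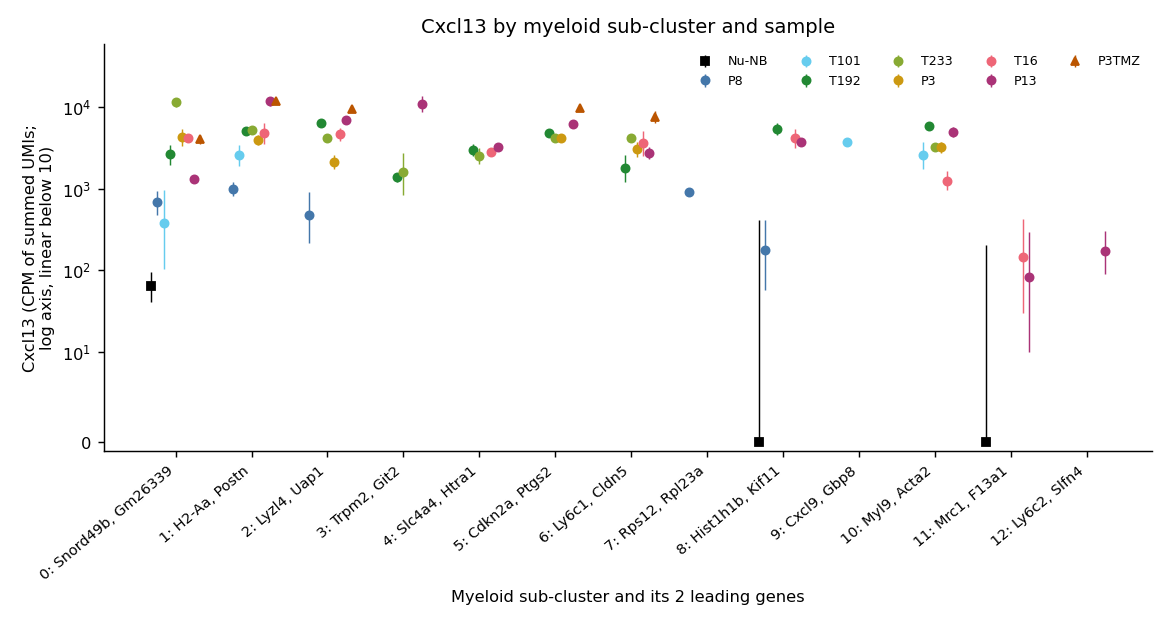
Cxcl13 in CPM of summed UMIs (vertical axis, log scale, linear below 10) by myeloid sub-cluster with its 2 leading genes (horizontal axis), 1 point per sample with at least 10 cells, with 95% exact Poisson intervals. Sub-clusters 11 and 12 lie at 81.8 to 172 CPM in PDOXs, while most other PDOX points lie above 1000 CPM.

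Single marker genes were examined too. In cells thinned to 500 UMIs, 12.8% of Mrc1-positive cells held Cxcl13 beside 39.0% of Mrc1-negative cells (medians of the 2 PDOXs with at least 10 positive cells). The values were 18.2% and 37.97% for Pf4, also in 2 PDOXs, and 14.3% and 34.7% for Ccr2 in 1 PDOX. Over all 26 genes examined, 18 had a higher share of cells with Cxcl13 among their positive cells in most PDOXs with enough such cells. The cycling gene Top2a was among these (5 of 6 PDOXs). Homeostatic genes were split: the share was higher with Tmem119 and Siglech in 4 of 7 PDOXs each. With P2ry12 and Gpr34 it was higher in 2 of 7 each. Of 7 genes of activated microglia, 6 had a higher share of cells with Cxcl13 among their positive cells in most PDOXs. They were Spp1 (6 of 7 PDOXs; medians 47.1% with and 38.5% without Spp1), Lpl and Cd9 (each 6 of 7), Ch25h (6 of 6), Cst7 (4 of 7) and Apoe (2 of 3). For Itgax, which encodes the integrin CD11c, it was higher in 2 of 6, with medians of 38.1% with and 49.8% without it.

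To ask which genes go with Cxcl13 inside a PDOX, thinned myeloid-like cells with and without a Cxcl13 UMI were summed per PDOX and compared with the PDOX as a block (edgeR quasi-likelihood, FDR ≤ 0.05). The positive side held 55 to 383 cells per PDOX and the negative side 70 to 462. Of 1134 genes tested 0 passed in either direction (0% called), and 103 had an unadjusted p below 0.05, 45 higher and 58 lower. DESeq2 also called 0 genes, with 38 below an unadjusted 0.05. The lowest FDR was 0.111. At 500 UMIs per cell an empty cell is not shown to lack the transcript, and the test covers genes abundant enough to be counted.

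Of 71 genes of the lists that were tested, 15 had an unadjusted p below 0.05, beside 103 of all 1134 genes tested. Spp1 differed by a log2 of 0.13 (95% interval -0.20 to 0.45), Apoe by -0.08 (-0.32 to 0.16) and Cst7, a protease inhibitor of activated microglia, by 0.20 (-0.14 to 0.54). These intervals are for the sums of thinned cells, where cells without a UMI can carry the transcript unseen. The median log2 over 13 activated microglial genes was 0.13 and over 9 homeostatic ones -0.08, beside 0.02 over all genes tested. P2ry12, a purinergic receptor of resting microglia, was at -0.41 (-0.65 to -0.16; edgeR FDR 0.174) and lower in positive cells in 6 of 7 PDOXs. Without thinning P2ry12 was at -0.62 and passed (edgeR FDR 0.000386), as did 11 other genes.

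Immediate early genes had the lowest median of the lists with at least 5 genes tested. The 12 genes tested had a median log2 of -0.33, and Jun, a subunit of the AP-1 factor, stood at -0.49 (-0.75 to -0.24; edgeR FDR 0.111), lower in Cxcl13-positive cells in 7 of 7 PDOXs. Immediate early genes are also induced while tissue is dissociated, and the part of that in these estimates was not tested. Isg15, an interferon-induced gene, had a log2 of 1.001 (0.48 to 1.52; edgeR FDR 0.111) and was higher in positive cells in 5 of 7 PDOXs. None of these genes passed the threshold.

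**Figure D5:**
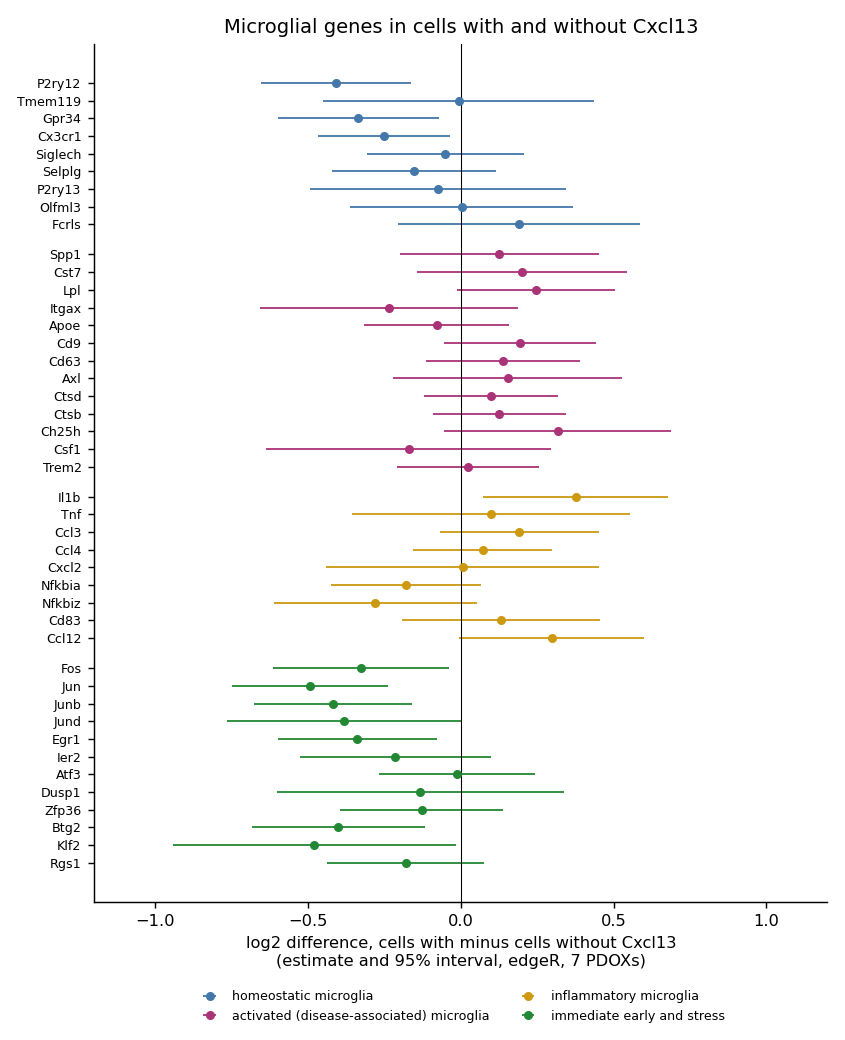
Log2 difference between myeloid-like cells with and without a Cxcl13 UMI (horizontal axis, edgeR estimate and 95% interval, 7 untreated PDOXs) for the tested genes of 4 lists (vertical axis). Points of activated and inflammatory genes scatter around 0, several homeostatic and immediate early genes such as P2ry12, Jun and Junb lie to the left, and 0 of them passed an FDR of 0.05.

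Over the 56 sums of a sample and a cell class, the genes whose level was most like that of Cxcl13 were myeloid genes. Among 3328 genes, Pearson's r of log2(CPM + 10) was 0.85 for C1qc and C1qa, 0.83 for Ctsd and Mpeg1, 0.82 for Fcer1g and Cd52, 0.81 for Rgs1 and 0.80 for Cd83. C1qc and C1qa encode complement chains, Ctsd a lysosomal protease and Mpeg1 perforin-2. The sums share libraries and depth, and classes differ in most genes, so these values mainly place Cxcl13 among the myeloid genes.

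The other genes of its pathway were compared between untreated PDOXs and Nu-NB in myeloid-like cells (edgeR, FDR ≤ 0.01 and |log2FC| ≥ 1). With 1 brain, the spread is that between PDOXs. Of 10498 genes tested 1 passed, Gm6625, which was lower in PDOXs (0.00953% called), and 0 were higher (0% called). Of 157 tested genes of 17 lists 0 passed, while 64 had an unadjusted p below 0.05, 51 higher and 13 lower, beside 1846 (17.6%) of all genes tested. DESeq2 called 194 genes, 27 of them on these lists. Leaving out P8 gave 36 calls, 4 higher and 32 lower. The count of calls therefore depends on the tool and on P8, and values are given as levels.

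Among the ligands, Ccl4 was at 43.0 CPM in Nu-NB and 863 to 2658 CPM in PDOXs, and Ccl3 at 37.9 and 436 to 1809 CPM. Both attract monocytes and T cells. Ccl12 was at 45.5 and 100.1 to 1105 CPM, and Cxcl10, induced by interferon, at 0 and 12.7 to 357 CPM. Of 26 other chemokines 11, these 4 among them, were above the brain in each PDOX, as Cxcl13 was, beside 2075 of the 17104 genes with a UMI (12.1%) and 1924 of the genes tested (18.3%). Pf4 was above it in 2 of 7 PDOXs, and Ccl27a and Ccl24 in 1 each. Of 12 CC chemokines tested 0 passed the edgeR threshold, and DESeq2 called Ccl12, Ccl3 and Ccl4 higher.

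Of 15 inducers and signal carriers of the lymphotoxin, TNF and alternative NF-kB route, 12 were tested and 0 passed in either tool, with a median log2 of 0.40 beside 0.21 over all genes. Tnf had 1 UMI in Nu-NB (2.53 CPM) and 20.4 to 480 CPM in PDOXs. Nfkb2, which encodes the precursor of p52, was at 10.1 CPM in Nu-NB and 17.8 to 69.6 CPM in PDOXs. For both genes each PDOX was above the brain. Relb was at 25.3 and 13.9 to 74.3 CPM, Map3k14 at 25.3 and 13.9 to 23.2 CPM, and the lymphotoxin receptor Ltbr at 58.2 and 27.9 to 55.6 CPM. The Nu-NB level lay within the PDOX range for Relb and above it for Map3k14 and Ltbr.

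The receptor was close to absent. Cxcr5 gave 23 UMIs in 22 of 12125 PDOX cells, of which 11 UMIs lay in myeloid-like and 11 in mixed cells, and it was listed in 5 of the 9 files. Cxcr3, a second reported receptor of CXCL13, gave 14 UMIs. Gpr183, the oxysterol receptor that helps place B cells, was at 276 CPM in Nu-NB and 121 to 300 CPM in PDOX myeloid-like cells, and its ligand-making enzyme Ch25h at 2.53 and 59.8 to 767 CPM.

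Summed over all kept cells, 7 usable markers of B cells, which follow CXCL13, held 67.9 to 285 CPM in PDOXs, with the highest value in T192, 79.0 CPM in Nu-NB and 97.1 CPM in P3TMZ. They named no class in the clustering used, but marked a sub-cluster of 59 cells at resolution 2 and one of 98 cells with no doublet removal. The 4 usable markers of follicular dendritic and reticular stroma, which makes CXCL13, of 7 listed, held 0 to 9.26 CPM in PDOXs and 1.70 CPM in Nu-NB. Markers of other classes within the myeloid-like cells, a measure of free RNA or doublets, were at 209 to 641 CPM for 10 endothelial genes (Nu-NB 55.6, P3TMZ 197) and at 183 to 5068 CPM for 10 astrocyte genes (Nu-NB 1446, P3TMZ 241). They were at 369 to 10605 CPM for 8 choroid plexus genes, with the highest value in P3 (Nu-NB 177, P3TMZ 3944), and at 40.1 to 920 CPM for 10 mural genes, again highest in P3 (Nu-NB 60.7, P3TMZ 154). Endothelial and choroid plexus markers were thus higher in each PDOX than in Nu-NB, as Cxcl13 was. For endothelial markers P3TMZ, highest for Cxcl13, lay below the PDOX range. Their part in the Cxcl13 level was not tested.

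Temozolomide treatment was examined in model P3, with P3TMZ beside the P3 sample labelled untreated. There is 1 sample on either side, and so no replicate check and no test. Cxcl13 in myeloid-like cells was 10010 CPM in P3TMZ (6950 UMIs) and 3754 CPM in P3 (1171 UMIs), a ratio of 2.67 (counting interval 2.51 to 2.84). Of 3342 genes compared, 13 had a higher ratio. In this pair 54 genes (1.62%) were at least 2-fold higher and 119 (3.56%) at least 2-fold lower, with a median log2 of -0.07. P3TMZ lay above the range of the 7 untreated PDOXs for Cxcl13 as for 271 of the genes (8.11%).

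No other chemokine compared reached that ratio. Of the 11 other chemokines compared, 0 were at least 2-fold higher, while Cxcl16, Ccl4 and Ccl9 were at least 2-fold lower. Ccl4 stood at 1093 CPM in P3TMZ and 2658 CPM in P3, and Ccl3 at 804 and 1350 CPM. Tnf was at 220 and 183 CPM. Of the cycling genes, Mki67 and Top2a were at least 2-fold higher in P3TMZ, and of the interferon-stimulated genes Bst2 was. Genes of other lists at least 2-fold lower in P3TMZ were H2-Aa of MHC class II, the immediate early gene Atf3 and the monocyte marker Ly6c2.

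The higher level in P3TMZ was present in 4 of the 5 sub-clusters with at least 10 cells in both samples. The ratio of P3TMZ to P3 was 2.97 (2.55 to 3.48) in sub-cluster 1, 4.42 (3.62 to 5.45) in sub-cluster 2, 2.30 (2.08 to 2.55) in sub-cluster 5 and 2.49 (1.89 to 3.29) in sub-cluster 6. In the homeostatic microglia-like cells of sub-cluster 0 it was 0.946 (0.718 to 1.26), with 4061 CPM in P3TMZ and 4294 CPM in P3, where 61 of the 65 UMIs of P3 came from 3 of 26 cells. Few cells also carry the P3 side in sub-clusters 5 and 2, as given above. The mix of sub-clusters differed too, with sub-cluster 0 at 28.8% of the cells in P3TMZ and 11.2% in P3. Weighted to the mix of P3 over these 5 sub-clusters, P3TMZ held 9576 CPM beside 3646 CPM in P3. Choroid plexus markers within the myeloid-like cells were higher in P3 than in P3TMZ, the opposite of Cxcl13, and their part in the ratio was not tested.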

How the data were processed

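Mouse cells of 9 Drop-seq samples were analysed. The authors mapped the reads with STAR (version not given in the sources used here) after bcl2fastq 2.0, to mm10 (GRCm38) per the labels, and deposited raw UMI counts per gene and barcode, without normalization. Members and gene lists were chosen with earlier results of these data known.

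A barcode counted as a cell if it had 200 genes or more and no more than 30% of its UMIs were mitochondrial. Genes seen in fewer than 5 cells were not used, and scrublet scores removed the top 5% of cells per sample as likely doublets. Totals use the 18314 symbols listed in both symbol releases. Cells were clustered without Cxcl13 (scanpy 1.11.5, leidenalg 0.10.2, Python 3.11.15; 2000 variable genes, 30 components, 20 neighbors, resolution 1, seed 1), and myeloid-like cells again at resolution 0.6. Clusters took names from fixed markers by a rule revised 3 times with the clusters in view. CPM are UMIs summed per sample and class over the total of those cells, with exact Poisson or binomial intervals of 95% (scipy 1.17.1) that cover counting error only. Counts were tested by edgeR 4.0.16 (quasi-likelihood, TMM, filterByExpr) and, as an alternative, DESeq2 1.42.0, on R 4.3.3; both ran on simulated data too. Named genes are those of the lists, the 8 most like Cxcl13 among genes at 50 CPM or more, and leading genes of sub-clusters. The PDOX block pairs sums of the same library. Settings tried are given with their effect after the report.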

Additional observations from a re-analysis of the deposited data

Results flagged for a closer look

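Of 30 sets of Cxcl13 values tested by Dixon's criterion, 3 held a sample far from the others, and chance alone gives about 1 in 20. In homeostatic microglia-like cells (sub-cluster 0) T233 held 11543 CPM and the other 6 untreated PDOXs 376 to 4294 CPM, with 71 of its 213 UMIs in 1 cell. In sub-cluster 1, led by H2-Aa, P13 held 11900 CPM and the other 6 held 994 to 5232 CPM, with 108 of its 250 UMIs in 1 of 20 cells. In cycling-like cells outside the myeloid class T192 held 259 CPM and the other 4 PDOXs 0 to 55.4 CPM. That value rests on 6 UMIs in 27 cells (94.9 to 563 CPM) and is near the 203 CPM (147 to 274) of the endothelial-like cells of T192.

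Barcodes that failed the filters on genes and mitochondrial UMIs, which the comparisons do not use, held Cxcl13 above the 9.52 CPM of Nu-NB in each of 8 tumor samples. They held 139 CPM in T16, 215 CPM in P8, 312 CPM in P13, 429 CPM in T101, 1180 CPM in P3, 1494 CPM in T233, 1625 CPM in T192 and 2464 CPM in P3TMZ. P3TMZ was highest here too.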

How the results depend on the processing

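The mean PDOX level of Cxcl13 moved by less than 1 SD in 12 other settings. The share of myeloid-like cells with a UMI became 59.6% at 1000 UMIs per cell and 29.3% when 2 UMIs were asked for. The share of Cxcl13 UMIs in myeloid-like cells fell to a mean of 32.1% when cells were named 1 by 1 from markers, which leaves out cells with markers of other classes. At resolution 2 this share was 28.4% in T16 and 37.4% in P13. Between cells with and without Cxcl13, calls numbered 8 with no filter on low counts (among them Mrc1, Ms4a7, Jun and hemoglobin genes, lower), 12 with no thinning (among them P2ry12 and Gpr34, lower), 2 when 2 UMIs were asked for, 1 with no doublet removal and 4 with P3TMZ added (Isg15 higher; Jun, Maf and P2ry12 lower). They ranged from 0 to 2 when a PDOX was left out: 2 without T192 (Jun and Wfdc17) and 1 without P13 (Cwc22). Without the replicate block 0 genes were called, as with it. For list genes in PDOXs against Nu-NB, DESeq2 called 27, and leaving out a PDOX gave 0 to 1 (P2ry13, without P8). The P3TMZ to P3 ratio was 2.38 with no doublet removal, 2.92 with cells named 1 by 1 and 1.75 for thinned shares, and by sub-cluster it was 0.946 (sub-cluster 0, reversed), 2.97 (1), 4.42 (2), 2.30 (5) and 2.49 (6). Added after seeing the data, the ratio was 2.49 without sub-clusters led by other classes' genes and 2.91 with TMM scaling. The cause of these shifts was not tested. Depth limits single genes: at 500 UMIs per cell 1134 genes could be tested.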
